A study of Mus musculus with 8 samples.

Results

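Transcripts of 37 autophagy genes were followed in Kupffer cells, the macrophages that reside in liver sinusoids. The cells were taken 2 h after surgery, which was either caecal ligation and puncture (CLP), a sepsis model in which the tied and pierced caecum leaks gut bacteria, or a sham procedure (Sham). The genes were chosen by symbol, from the core machinery, the cargo receptors and the transcriptional regulators of autophagy, and all 37 were found among the 55414 genes of the count table. All libraries came from wild-type C57BL/6J mice that had surgery, and the cells were sorted from the liver by flow cytometry. There were 4 libraries per group. Neither the age and sex of the mice nor the sorting gate is stated in the labels. Nor do the labels say outright that each library came from its own mouse, so that p-values measure only the spread between these samples. The study as a whole concerns the mechanism of red cell rupture in sepsis.

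Autophagy encloses part of the cytoplasm, a damaged organelle or a bacterium in a growing double membrane and delivers it to the lysosome. The ULK kinase complex starts the process, a class III PI3-kinase complex marks the membrane with the lipid PI3P, and PI3P-binding proteins, lipid transfer proteins and ATG9 vesicles let it grow. Conjugation enzymes then fix ATG8 proteins (the LC3 and GABARAP families) to the membrane, where cargo receptors dock with what they carry. The transcription factors TFEB, TFE3 and MITF drive genes of autophagy and of lysosomes. In macrophages the pathway takes part in the clearance of bacteria and of damaged mitochondria and in restraint of inflammasomes.

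Counts per library lay between 23311897 and 28724875. Values are in CPM, counts relative to a fixed library total, after TMM scaling, which matches libraries on the bulk of their genes. The TMM factors were 0.801 to 0.837 in CLP and 1.16 to 1.28 in Sham. Scaling by total counts in place of TMM shifted the median log2 fold change of all genes by -0.56, so each change is given relative to the TMM scale, and a member whose change turned or was lost with total counts is named. On the second principal component, with 9.99% of the variance, CLP replicate 1 lay away from the other 3 libraries of its group. The 9 Kupffer cell markers were all present, with a summed level of 28770.5 to 37270.4 CPM in CLP and 22009 to 28314 CPM in Sham. The summed level of 12 neutrophil markers was 258 to 671 CPM in CLP, lowest in CLP replicate 1, and 102 to 145 CPM in Sham, where Ly6g and Camp were at 0. All 10 neutrophil markers tested were higher in CLP. For 6 platelet markers the sums were 120 to 194 CPM and 15.1 to 27.8 CPM, with all 5 tested higher. On the TMM scale, summed levels were also higher in CLP for 7 endothelial markers (2231 to 2762 against 1551 to 1965 CPM, 3 past the test) and 6 B cell markers (12.9 to 20.1 against 7.48 to 12.7 CPM, 5 past it upward and 1 downward). Most of the endothelial sum was Cdh5, with means of 1914 CPM in CLP and 1277 CPM in Sham. Kdr and Clec4g also passed as higher. Stab2 (292.6 against 302.4 CPM), Pecam1 (120 against 155 CPM), Lyve1 and Oit3 did not pass, so the sum does not show a rise shared by these markers. The ranges touched or overlapped for 7 hepatocyte markers (3445 to 4914 and 2517 to 3535 CPM, 2 higher), 6 monocyte markers (215 to 356 and 164 to 274 CPM, 1 higher) and 5 red cell precursor markers (8.199 to 15.0 and 3.52 to 9.26 CPM, 2 higher). For 5 stellate cell markers the ranges were close but did not overlap, at 40.5 to 59.0 CPM in CLP and 31.6 to 39.0 CPM in Sham (2 higher). For 7 T and NK cell markers, none abundant enough to test, they overlapped, at 0.825 to 2.68 and 0.458 to 0.914 CPM. With total counts the neutrophil sums (216 to 557 against 126 to 177 CPM) and the platelet sums (99.5 to 161 against 19.3 to 32.4 CPM) still did not overlap. The ranges of the other 8 lists then overlapped, with mean sums lower in CLP for Kupffer cell (26624 against 31712 CPM), endothelial (2013 against 2203 CPM), hepatocyte, monocyte and stellate cell markers, and B cell means of 12.6 and 12.4 CPM. The part of these cells in the results on autophagy genes was not tested. In bulk samples a smaller number of cells of a type and less RNA per cell cannot be told apart.

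Of the 37 genes, 36 had enough reads to be tested. Atg9b, a paralogue of the vesicle protein gene Atg9a, was not, with 6 counts in the 4 CLP libraries and 10 in the 4 Sham libraries, and its exons overlap those of Nos3 on the opposite strand. In edgeR's quasi-likelihood test with Benjamini-Hochberg adjustment over all 14655 genes tested and a threshold of 0.05, 14 of the 36 rose in CLP (38.9%), 13 fell (36.1%) and 9 did not pass. Over all genes tested, 24.9% rose and 29.5% fell. The median log2 fold change of the 36 was 0.02, against -0.04 for all genes tested. Changes of at least 2-fold were found in 4 genes upward (Sqstm1, Tax1bp1, Mitf and Optn) and 4 downward (Tfeb, Atg101, Ulk2 and Atg4c), against 12.8% and 15.9% of all genes tested. The values of the 4 CLP libraries all lay above those of the 4 Sham libraries in 13 members and below them in 13, against 22.1% and 27.3% of all genes tested. With total-count scaling 5 members were higher and 22 lower, against 11.7% and 56.6% of all genes, and calls upward made up 17.1% of all calls in place of 45.8%. The 5 genes higher on both scales were Sqstm1, Optn, Tax1bp1, Mitf and Gabarapl1, and all 13 that fell on the TMM scale also fell on that of total counts.

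**Figure D1:**
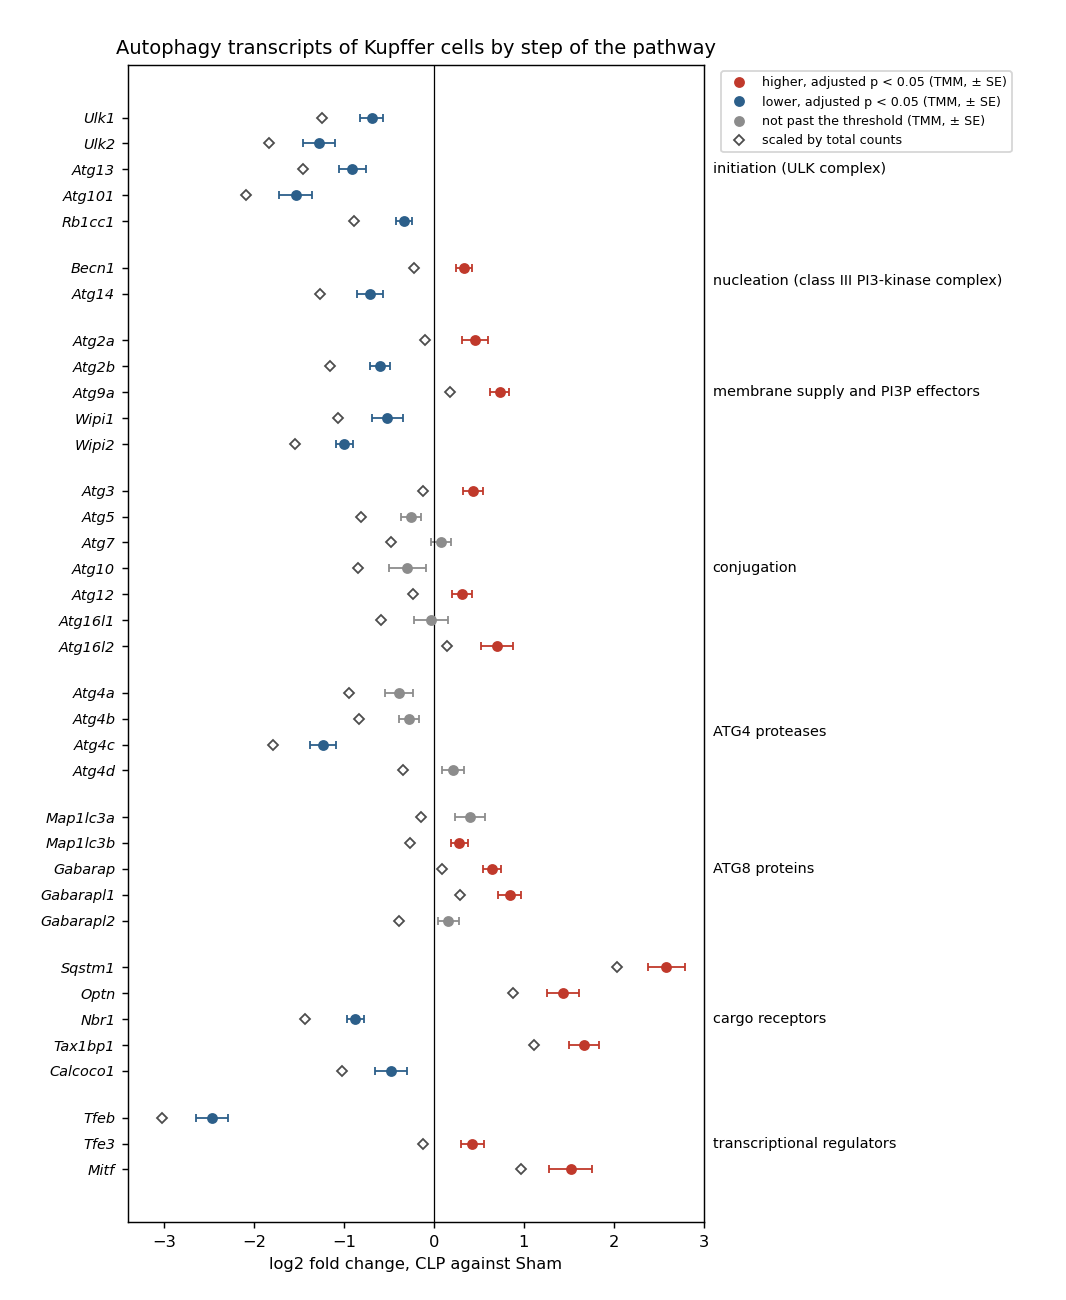
The log2 fold change of each tested autophagy gene, CLP against Sham, is plotted by step of the pathway, as a filled point with its SE on the TMM scale and as an open diamond with total-count scaling. All 5 genes of the ULK complex lie below 0 on both scales, the cargo receptors lie on both sides, and 3 of the 5 ATG8 genes move to below 0 with total counts.

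The ULK complex, which starts autophagosome formation, fell as a whole: all 5 genes tested were lower in CLP, with log2 fold changes from -1.53 to -0.33. The 2 kinases differed in size. Ulk2 (ENSMUSG00000004798) was at 102, 59.5, 61.5 and 60.2 CPM in CLP replicates 1 to 4 and at 154, 182, 160.3 and 189 CPM in Sham replicates 1 to 4. The groups did not overlap, and CLP replicate 1 was the highest of its group. Ulk2 fell by 1.27 ± 0.18 on the log2 scale (SE; edgeR adjusted p = 1.9e-04), or by 1.502 without CLP replicate 1. Ulk1, the better known kinase of the pair, lay between 37.2 and 53.6 CPM in CLP and between 67.7 and 69.7 CPM in Sham, a log2 fold change of -0.69 ± 0.12. Within each library the log2 ratio of Ulk1 to Ulk2 counts was higher in CLP, at -0.71 ± 0.16 against -1.31 ± 0.14 in Sham (SD, n = 4; exact permutation test, two-sided, p = 0.0286, the smallest that 4 against 4 libraries allow).

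Atg101 (ENSMUSG00000037204), which binds and stabilises ATG13, had the smallest p of the complex. It was at 4.95, 3.46, 5.95 and 4.00 CPM in CLP and at 14.4, 13.9, 11.7 and 13.4 CPM in Sham, with every CLP library below every Sham library. Its log2 fold change was -1.53 ± 0.18 (edgeR adjusted p = 5.9e-05). Its partner Atg13, the regulatory subunit that mTORC1 phosphorylates, fell by 0.91 ± 0.15 on the log2 scale, with 33.6 to 42.1 CPM in the Sham libraries and 16.4 to 26.7 CPM after CLP. Rb1cc1, the gene of the scaffold FIP200, fell least, by 0.33 ± 0.09 on the log2 scale (edgeR adjusted p = 0.0109), with 67.0 to 79.9 CPM in CLP against 90.2 to 94.7 CPM in Sham. The calls of all 5 genes held in each of the 14 alternatives run.

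**Figure D2:**
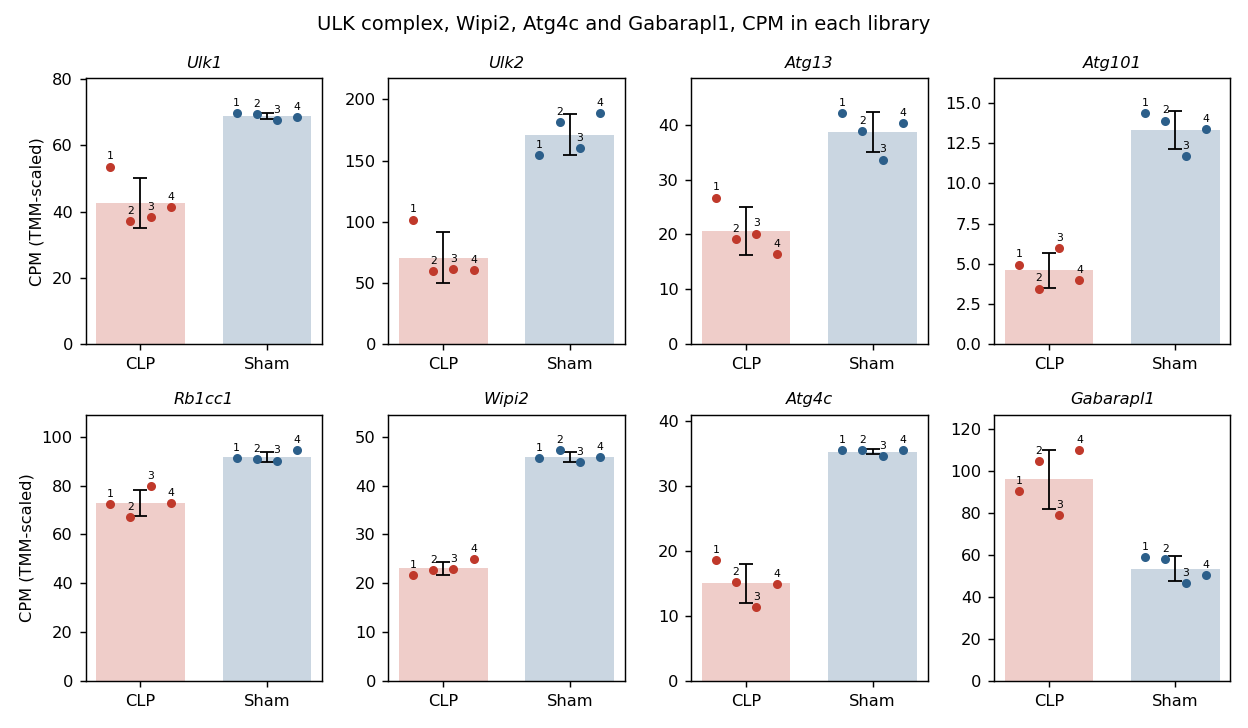
CPM (TMM-scaled) of the 5 ULK complex genes, Wipi2, Atg4c and Gabarapl1 in each library, with bars for group means, error bars for SD (n = 4) and replicate numbers beside the points. In all 8 panels the CLP and Sham points do not overlap, and CLP replicate 1 is the CLP library nearest to Sham for Ulk1, Ulk2, Atg13 and Atg4c.

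The 2 genes of the PI3-kinase complex among the members moved in opposite directions. Becn1 (ENSMUSG00000035086), the gene of the subunit beclin 1 that all forms of the complex share, was at 87.1, 80.02, 88.1 and 89.9 CPM in CLP and at 72.1, 68.4, 65.3 and 67.8 CPM in Sham. The groups did not overlap, and the log2 fold change was 0.34 ± 0.09 (edgeR adjusted p = 0.00855), but it did not pass with total-count scaling (-0.22) or with no filter on low counts (0.28, edgeR adjusted p = 0.0943). Exons of Becn1 overlap those of Cntd1 on the opposite strand over 3104 of 7065 bases, and Cntd1 was given 109 counts against 16157 for Becn1 over the 8 libraries. Atg14 (ENSMUSG00000037526), whose protein directs the complex to autophagosome formation, was at 10.2, 11.1, 14.1 and 14.2 CPM in CLP and at 20.5, 20.4, 18.0 and 22.1 CPM in Sham. It fell by 0.71 ± 0.14 on the log2 scale (edgeR adjusted p = 0.00167), with no overlap between the groups.

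Other genes of the complex and of early membrane growth, a list of 12 that are not members, gave 3 higher (25%) and 4 lower (33.3%). These shares are near those of all genes tested, 24.9% and 29.5%. The 3 with the smallest p were all lower. The catalytic subunit Pik3c3 was at 11.3 ± 3.48 CPM in CLP against 42.1 ± 4.12 CPM in Sham, and the regulatory subunit Pik3r4 at 25.7 ± 2.98 against 51.8 ± 1.31 CPM (SD, n = 4). Rubcn, the gene of rubicon, which inhibits the complex in endosome fusion and serves in LC3-associated phagocytosis, was at 9.17 ± 2.87 against 41.7 ± 5.31 CPM. Their log2 fold changes were -1.89 ± 0.19, -1.01 ± 0.11 and -2.18 ± 0.20 (edgeR adjusted p = 2.2e-05, 2.7e-05 and 1.3e-05).

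Of the 5 genes of membrane supply and PI3P binding that were tested, Atg2a and Atg9a were higher, neither past the threshold with total counts, and Atg2b, Wipi1 and Wipi2 were lower. Of the 2 lipid transfer protein genes, Atg2a (ENSMUSG00000024773) was at 166, 142, 120.0 and 111 CPM in CLP and at 111, 104, 87.7 and 91.3 CPM in Sham. The lowest CLP library was only just above the highest Sham library, and the log2 fold change of 0.46 ± 0.14 (edgeR adjusted p = 0.0197) turned to -0.09 with total counts and was not past the threshold without CLP replicate 2, Sham replicate 3 or Sham replicate 4 (edgeR adjusted p = 0.0512 to 0.0631). Atg2b fell by 0.60 ± 0.11 on the log2 scale, with 30.2 to 32.1 CPM in CLP against 41.6 to 54.9 CPM in Sham. Its exons overlap those of Gskip on the opposite strand over 383 of 13456 bases. The log2 ratio of Atg2a to Atg2b counts within a library was 2.09 ± 0.26 in CLP and 1.06 ± 0.32 in Sham, without overlap.

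Atg9a, the membrane protein of the vesicles that seed the autophagosome, rose by 0.73 ± 0.11 on the log2 scale, with 35.4 to 44.5 CPM in CLP against 24.4 to 26.8 CPM in Sham, and did not pass with total counts (0.18, edgeR adjusted p = 0.176). Both PI3P-binding WIPI genes fell. Wipi2 (ENSMUSG00000029578), which recruits the ATG16L1 conjugation complex, was at 21.7, 22.7, 22.9 and 24.9 CPM in CLP and at 45.6, 47.3, 44.8 and 45.8 CPM in Sham. Each group spanned a narrow range far from the other, and the log2 fold change was -0.99 ± 0.09 (edgeR adjusted p = 1.3e-05). Wipi1 had a log2 fold change of -0.51 ± 0.17 (edgeR adjusted p = 0.0266). In CLP replicate 1 it stood at 7.95 CPM, above the 7.76 CPM of Sham replicate 1, and its call was lost with any one of CLP replicates 2 and 4 and Sham replicates 2, 3 and 4 left out (edgeR adjusted p = 0.0642 to 0.0769).

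Of 7 genes of the conjugation machinery, 3 rose (Atg3, Atg12 and Atg16l2), none fell and 4 did not pass, with log2 fold changes from -0.29 to 0.70. None of the 3 rises was past the threshold with total counts, where the values for Atg3 and Atg12 turned to -0.12 and -0.23 and the other 4, Atg5, Atg7, Atg10 and Atg16l1, were past it as lower (-0.84 to -0.47). Atg7 (ENSMUSG00000030314), the E1-like enzyme that activates both ATG12 and ATG8 proteins, was at 69.0, 56.0, 58.3 and 53.3 CPM in CLP and at 55.7, 61.5, 54.0 and 52.5 CPM in Sham. The groups overlapped over most of their range (log2 fold change 0.08 ± 0.11, edgeR adjusted p = 0.55).

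Atg16l2 (ENSMUSG00000047767), a paralogue of the ATG16L1 scaffold, had the smallest p of the conjugation genes. It was at 13.5, 20.4, 22.3 and 23.9 CPM in CLP and at 13.7, 11.9, 12.98 and 10.6 CPM in Sham. CLP replicate 1 lay within the Sham range and the other 3 CLP libraries above it. Atg16l2 rose by 0.70 ± 0.18 on the log2 scale (edgeR adjusted p = 0.00656), or by 0.85 without CLP replicate 1. Atg16l1 was also lowest in CLP replicate 1, at 22.3 CPM against 35.8 to 42.5 CPM in the other CLP libraries and 29.8 to 40.9 CPM in Sham, and its log2 fold change was -0.03 ± 0.18. The log2 ratio of Atg16l1 to Atg16l2 counts was at 0.79 ± 0.11 in CLP and 1.53 ± 0.13 in Sham.

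The remaining enzymes were the E2-like pair and the 2 proteins joined to each other in the conjugate. Atg3, which transfers ATG8 proteins to lipid, lay between 46.8 and 60.9 CPM in CLP and between 35.7 and 40.8 CPM in Sham (0.44 ± 0.11). Atg10, which loads ATG12, did not pass (-0.29 ± 0.20), but without CLP replicate 1 it was lower, at -0.52 (edgeR adjusted p = 0.0108). For the 2 partners of the conjugate, Atg12 had a log2 fold change of 0.32 ± 0.11 (edgeR adjusted p = 0.0307) and Atg5 of -0.25 ± 0.11 (edgeR adjusted p = 0.0704). Atg5 was lower without CLP replicate 1 (-0.27, edgeR adjusted p = 0.0493) and with the GC correction (-0.32, edgeR adjusted p = 0.0332). The call of Atg12 was lost without any one of CLP replicates 2 and 4 and Sham replicates 2, 3 and 4 (edgeR adjusted p = 0.0519 to 0.08), with no filter on low counts (edgeR adjusted p = 0.149) and after correction for GC content (edgeR adjusted p = 0.0783). The log2 ratio of Atg5 to Atg12 counts was -0.45 ± 0.25 in CLP and 0.12 ± 0.11 in Sham, with no overlap (exact permutation test, two-sided, p = 0.0286).

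Among the 4 ATG4 proteases, which trim ATG8 proteins before conjugation and cut them from the membrane later, 1 fell and 3 did not pass. Atg4c (ENSMUSG00000028550) was at 18.6, 15.2, 11.4 and 14.9 CPM in CLP and at 35.5, 35.6, 34.6 and 35.5 CPM in Sham. The Sham libraries were nearly level and all CLP libraries were far below them, with a log2 fold change of -1.23 ± 0.14 (edgeR adjusted p = 4.8e-05). Atg4b (ENSMUSG00000026280), the broadest in its range of ATG8 substrates, was at 23.97, 25.5, 28.6 and 31.8 CPM in CLP and at 31.5, 32.6, 35.5 and 33.6 CPM in Sham. The groups touched at their edges, and the change did not pass (-0.28 ± 0.11, edgeR adjusted p = 0.0582). Atg4a was at 5.27 to 6.29 CPM in CLP and 6.74 to 8.78 CPM in Sham (-0.39 ± 0.15, edgeR adjusted p = 0.0512), and an Atg4a pseudogene exists, so that reads may have been split. Atg4d was at 12.9 to 17.4 CPM and 12.6 to 13.8 CPM (0.21 ± 0.12), and 1405 of its 7264 exon bases overlap Kri1 on the opposite strand. Atg4a was lower without Sham replicate 3 (-0.44, edgeR adjusted p = 0.0458) and with the GC correction (-0.47, edgeR adjusted p = 0.0226). Without CLP replicate 4 Atg4b was lower (-0.35, edgeR adjusted p = 0.0278), and without CLP replicate 1 Atg4d was higher (0.29, edgeR adjusted p = 0.0408). With total-count scaling Atg4a, Atg4b and Atg4d were past the threshold as lower (-0.94, -0.83 and -0.34).

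Of the 5 ATG8 genes 3 rose, none fell, and log2 fold changes lay between 0.16 and 0.84, but with total-count scaling only Gabarapl1 remained higher and Map1lc3b (-0.27) and Gabarapl2 (-0.39) were lower. Gabarapl1 (ENSMUSG00000030161) was at 90.6, 105, 79.2 and 110.2 CPM in CLP and at 58.9, 58.0, 46.8 and 50.6 CPM in Sham. The groups did not overlap, and Gabarapl1 rose by 0.84 ± 0.13 on the log2 scale (edgeR adjusted p = 3.2e-04), or 0.29 with total counts (edgeR adjusted p = 0.0466). Gabarap (ENSMUSG00000018567), the ATG8 gene with the highest level per kilobase of exon, was at 261, 233, 248 and 231 CPM in CLP and at 166, 163, 139.9 and 153 CPM in Sham. Here too the groups were apart (0.65 ± 0.10, edgeR adjusted p = 4.0e-04), but with total counts the change was 0.10 and did not pass.

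Map1lc3b, which encodes the LC3B protein commonly used to count autophagosomes, rose by 0.28 ± 0.09 on the log2 scale (edgeR adjusted p = 0.0266), with 75.7 to 83.2 CPM in CLP against 60.4 to 71.3 CPM in Sham. That call was lost without any one of CLP replicates 2, 3 and 4 and Sham replicates 3 and 4 (edgeR adjusted p = 0.0558 to 0.0865) and with no filter on low counts (edgeR adjusted p = 0.196). Map1lc3a (0.40 ± 0.16, edgeR adjusted p = 0.0573) and Gabarapl2 (0.16 ± 0.12, edgeR adjusted p = 0.253) did not pass. Map1lc3a did pass as higher without CLP replicate 4 (0.51, edgeR adjusted p = 0.0253), with DESeq2 (0.47, adjusted p = 0.0233) and with the GC correction (0.64, edgeR adjusted p = 0.00392). Per kilobase of exon, GABARAP-type transcripts made up most of the family in both groups: Gabarap alone took 62.4 ± 2.42% of the summed CPM per kb in CLP and 61.7 ± 0.52% in Sham, and Map1lc3b 5.07 ± 0.37% and 6.44 ± 0.08% (SD, n = 4). The sum was 211 ± 7.43 CPM per kb in CLP and 137 ± 11.1 CPM per kb in Sham. These lengths join all annotated exons of a gene, 7517 bases for Map1lc3b and 1844 for Gabarap. Shares between genes therefore depend on the annotation, and the isoforms expressed were not determined. Within libraries, the log2 ratio of Gabarapl1 to Gabarapl2 counts was 2.32 ± 0.30 in CLP and 1.65 ± 0.11 in Sham, and that of Gabarap to Map1lc3b counts 1.60 ± 0.13 and 1.23 ± 0.02, both without overlap.

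Of the 5 cargo receptors 3 rose and 2 fell, and they held the 2 largest rises of the 36 genes. Sqstm1 (ENSMUSG00000015837), whose protein p62 gathers ubiquitin-tagged cargo and activates NRF2 by binding KEAP1, was at 1437, 2111, 1417 and 2287 CPM in CLP and at 375, 318, 259 and 258 CPM in Sham. Every CLP library was far above every Sham library, and CLP replicates 2 and 4 were above replicates 1 and 3. Sqstm1 rose by 2.58 ± 0.21 on the log2 scale (edgeR adjusted p = 6.3e-06), or 5.99-fold, and by 2.03 with total counts. Its exons overlap those of Mrnip on the opposite strand, a gene given 168 counts against 191529 for Sqstm1.

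Tax1bp1 (ENSMUSG00000004535), a ubiquitin receptor that also works with A20 to damp NF-kB signalling, was at 455, 635, 716 and 602 CPM in CLP and at 222, 204, 157 and 175 CPM in Sham. Tax1bp1 rose by 1.67 ± 0.17 on the log2 scale (edgeR adjusted p = 2.0e-05). Optn (ENSMUSG00000026672), the gene of optineurin, a receptor for bacteria and mitochondria that TBK1 phosphorylates, was at 66.9, 102, 122 and 118 CPM in CLP and at 41.8, 39.7, 36.8 and 32.9 CPM in Sham. It rose by 1.43 ± 0.18 on the log2 scale (edgeR adjusted p = 8.0e-05). In both genes CLP replicate 1 was the lowest CLP library, yet above all Sham libraries, and without it the log2 fold changes were 1.78 and 1.59.

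Nbr1, a receptor that shares its domain plan with p62 and acts with it, fell. It lay between 75.7 and 89.9 CPM in CLP and between 149 and 154 CPM in Sham, a log2 fold change of -0.87 ± 0.09 (edgeR adjusted p = 3.2e-05). Calcoco1, a receptor for the endoplasmic reticulum and the Golgi, had a log2 fold change of -0.47 ± 0.18 (edgeR adjusted p = 0.0452). Its CLP replicate 1, at 34.6 CPM, lay within the Sham range of 29.6 to 37.2 CPM, the other CLP libraries at 19.1 to 23.8 CPM lay below it, and the call was lost without any one of CLP replicates 2, 3 and 4 and Sham replicates 1, 2 and 4 (edgeR adjusted p = 0.0838 to 0.126), with DESeq2 (adjusted p = 0.0722) and with the GC correction (edgeR adjusted p = 0.0755). Within each library, counts of Sqstm1 were 1.97 times those of Nbr1 in Sham and 21.5 times in CLP as geometric means, with log2 ratios of 0.98 ± 0.28 and 4.42 ± 0.38 (exact permutation test, two-sided, p = 0.0286). The ratio of Optn to Tax1bp1 counts overlapped between the groups (log2 ratios -2.58 ± 0.18 and -2.32 ± 0.15, p = 0.114 by the same exact test, or 0.143 adjusted over 15 pairs and 0.0429 adjusted without CLP replicate 4). Per kilobase of exon, Sqstm1 took 83.5 ± 3.72% of the summed CPM of the 5 receptors in CLP and 61.0 ± 2.82% in Sham. Nbr1 took 1.94 ± 0.47% and 15.2 ± 2.22%.

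**Figure D3:**
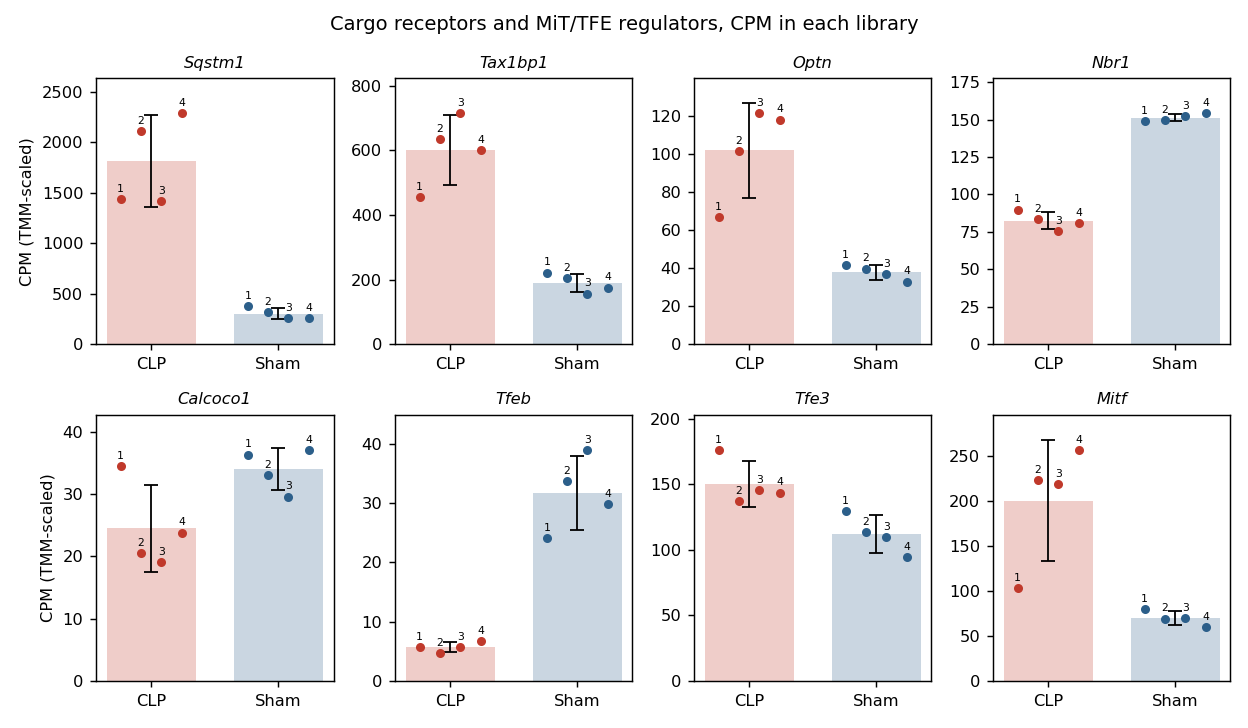
CPM (TMM-scaled) of the 5 cargo receptor genes and of Tfeb, Tfe3 and Mitf in each library, with bars for group means, error bars for SD (n = 4) and replicate numbers beside the points. CLP points lie above Sham for Sqstm1, Tax1bp1, Optn, Tfe3 and Mitf and below for Nbr1 and Tfeb, and CLP replicate 1 reaches the Sham range for Calcoco1.

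**Figure D4:**
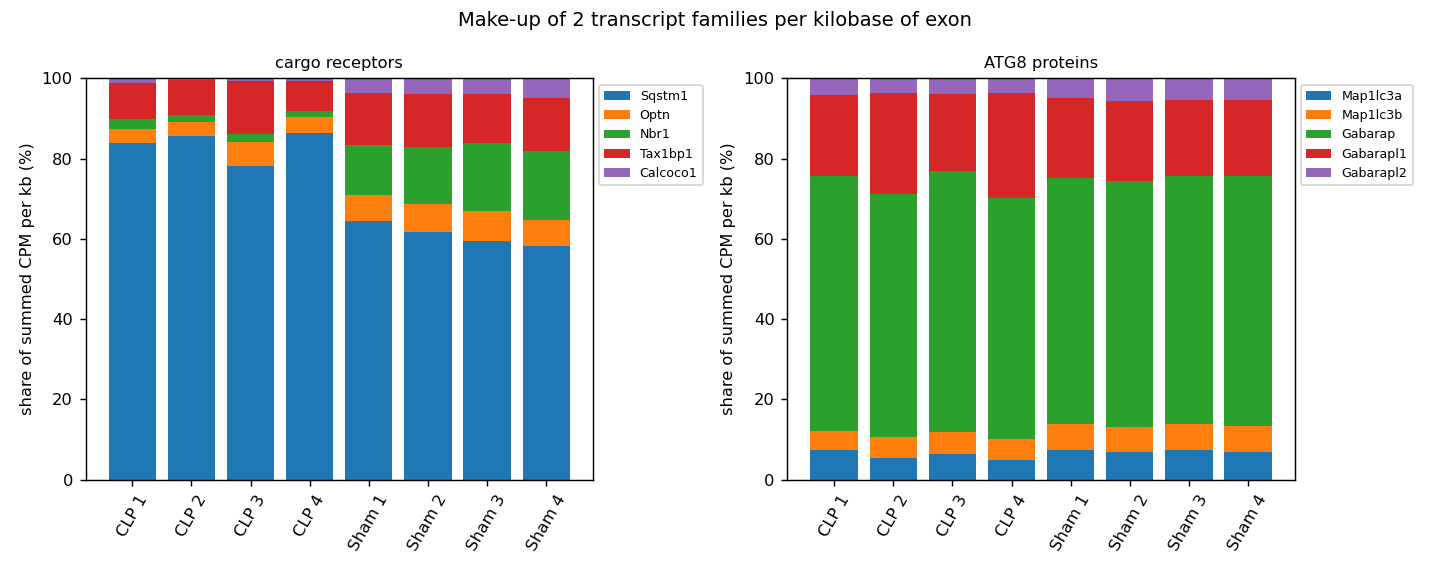
Each stacked bar is a library, and its segments are the shares (%) of the summed CPM per kilobase of exon held by each cargo receptor gene (left) and each ATG8 gene (right). Sqstm1 holds 78.1 to 86.4% of the receptor sum in CLP and 58.1 to 64.5% in Sham, while the share of Gabarap is 60.1 to 65.2% and 61.2 to 62.4%.

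Of the 3 related transcription factors among the members, Mitf and Tfe3 were higher in CLP and Tfeb was lower, but the value for Tfe3 turned with total counts. Tfeb (ENSMUSG00000023990), the factor best known for driving lysosome and autophagy genes, was at 5.74, 4.71, 5.68 and 6.73 CPM in CLP and at 24.1, 33.7, 39.0 and 29.8 CPM in Sham. All CLP libraries were far below all Sham libraries, and Sham replicate 3 was the highest. The log2 fold change of -2.47 ± 0.17 (edgeR adjusted p = 3.8e-06), a 5.53-fold fall, was the largest fall among the 36 genes tested. Mitf (ENSMUSG00000035158) was at 103, 224, 219 and 257 CPM in CLP and at 79.8, 69.5, 70.4 and 60.3 CPM in Sham. CLP replicate 1 stood well below the other CLP libraries and above all Sham libraries. Mitf rose by 1.52 ± 0.24 on the log2 scale (edgeR adjusted p = 4.0e-04), or by 1.74 without CLP replicate 1.

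Tfe3 was past the threshold as higher, at 137 to 176 CPM in CLP and 94.3 to 129.6 CPM in Sham (0.43 ± 0.13, edgeR adjusted p = 0.0148), but turned to -0.12 with total counts and did not pass without Sham replicate 4 (edgeR adjusted p = 0.0553). The log2 ratio of Tfeb to Tfe3 counts went from -1.83 ± 0.41 in Sham to -4.72 ± 0.23 in CLP without overlap. That of Mitf to Tfe3 counts was -0.77 in CLP replicate 1, below the Sham range of -0.71 to -0.64, and 0.59 to 0.84 in the other CLP libraries, so that the groups overlapped (p = 0.143 by a two-sided exact permutation test, and 0.165 after adjustment). Without CLP replicate 1 the difference was 1.39 and past the threshold (adjusted p = 0.039 by the same exact test).

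Promoter windows of RefSeq (assembly GRCm38.p6, from 250 bases before to 50 after each start site) were found for 32 of the 37 members and searched on both strands for 4 elements. The E-box CACGTG, at which TFEB-type factors bind, was in the windows of 4 of 32 members (12.5%), Atg3, Atg5, Atg7 and Atg14, against 11.5% of tested genes with a window and 7.15% of all windows. The CLEAR element, searched only as that exact E-box with GT before and AC after it, was in 0 of 32 members and in 0.801% of tested genes. Near matches to it were not counted. The AP-1 element TGANTCA was in 1 member, Tfe3 (3.13%), against 6.48% of tested genes. The antioxidant response core TGACNNNGC was in 5 (15.6%), Atg13, Map1lc3b, Mitf, Tax1bp1 and Ulk2, against 16.9%. Among the members with a match were some that rose, some that fell and some that did not pass. A match is a run of letters, not a site of binding.

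Stretches upstream of 4 start sites are shown, 5′ to 3′ on the strand of the gene, since these genes lead the rises or falls or hold the matches. They are Sqstm1 (chr11:50210821-50211070, minus strand), which rose most and holds none of the 4 elements, and Tax1bp1 (chr6:52713915-52714164, plus strand), a receptor that rose. Atg3 (chr16:45158679-45158828, plus strand) holds 2 E-boxes, and Ulk2 (chr11:61855093-61855242, minus strand) is a kinase that fell. Capitals mark the matched letters, and all coordinates are those of GRCm38.p6, not of the build of the counts.
Sqstm1: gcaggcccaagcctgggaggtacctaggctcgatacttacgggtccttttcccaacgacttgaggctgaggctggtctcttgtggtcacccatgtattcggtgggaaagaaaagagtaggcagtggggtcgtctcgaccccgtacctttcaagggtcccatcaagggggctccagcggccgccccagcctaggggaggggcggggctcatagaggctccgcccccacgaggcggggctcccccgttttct
Tax1bp1: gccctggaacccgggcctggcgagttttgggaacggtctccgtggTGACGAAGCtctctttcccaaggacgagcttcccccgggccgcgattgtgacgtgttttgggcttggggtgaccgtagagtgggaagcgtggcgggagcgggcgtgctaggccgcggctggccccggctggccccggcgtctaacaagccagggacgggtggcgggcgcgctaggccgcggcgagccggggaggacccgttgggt
Atg3: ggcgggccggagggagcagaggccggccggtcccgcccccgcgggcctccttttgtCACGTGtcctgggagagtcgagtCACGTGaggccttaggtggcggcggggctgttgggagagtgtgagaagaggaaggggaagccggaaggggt
Ulk2: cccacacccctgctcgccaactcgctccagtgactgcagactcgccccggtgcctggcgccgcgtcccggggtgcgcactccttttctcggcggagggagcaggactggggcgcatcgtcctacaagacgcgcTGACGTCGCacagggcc

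Ratios of counts within a library do not depend on how libraries are scaled. Of 15 pairs of related members, 9 were past an adjusted p of 0.05 (each with p = 0.0286, the smallest that 4 against 4 libraries allow, or p = 0.0476 adjusted over the 15 pairs by the exact permutation test). These 9 share one adjusted p and pass or fail together. Whether they pass depends on how many of the chosen pairs reach the smallest p. In the same 9 the groups did not overlap, which that smallest p already implies and which adds nothing to it. In the pairs Sqstm1 to Nbr1, Tfeb to Tfe3, Atg2a to Atg2b and Atg5 to Atg12, both genes had moved in opposite directions without overlap on the TMM scale. Their ratios therefore had to separate, and the p of these pairs is no further support for the changes of the single genes. The share over other pairs of genes was not computed. The largest differences were those of Sqstm1 to Nbr1 (3.44 on the log2 scale, CLP minus Sham), Tfeb to Tfe3 (-2.88) and Atg4c to Atg4d (-1.46). Among the pairs that did not pass were Map1lc3a to Map1lc3b, with mean log2 ratios of -2.43 ± 0.36 in CLP and -2.53 ± 0.04 in Sham, and Atg4a to Atg4b, with -2.23 ± 0.18 and -2.14 ± 0.23. The pair Wipi1 to Wipi2 passed without CLP replicate 2 (a difference of 0.58) and with 5 counts added in place of 0.5 (0.48, adjusted p = 0.0429 in both by the exact permutation test), and Atg9a to Atg9b, with few Atg9b counts, without CLP replicate 1 (1.04, adjusted p = 0.039). These ratios are not corrected for exon length, so only their difference between groups is read.

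**Figure D5:**
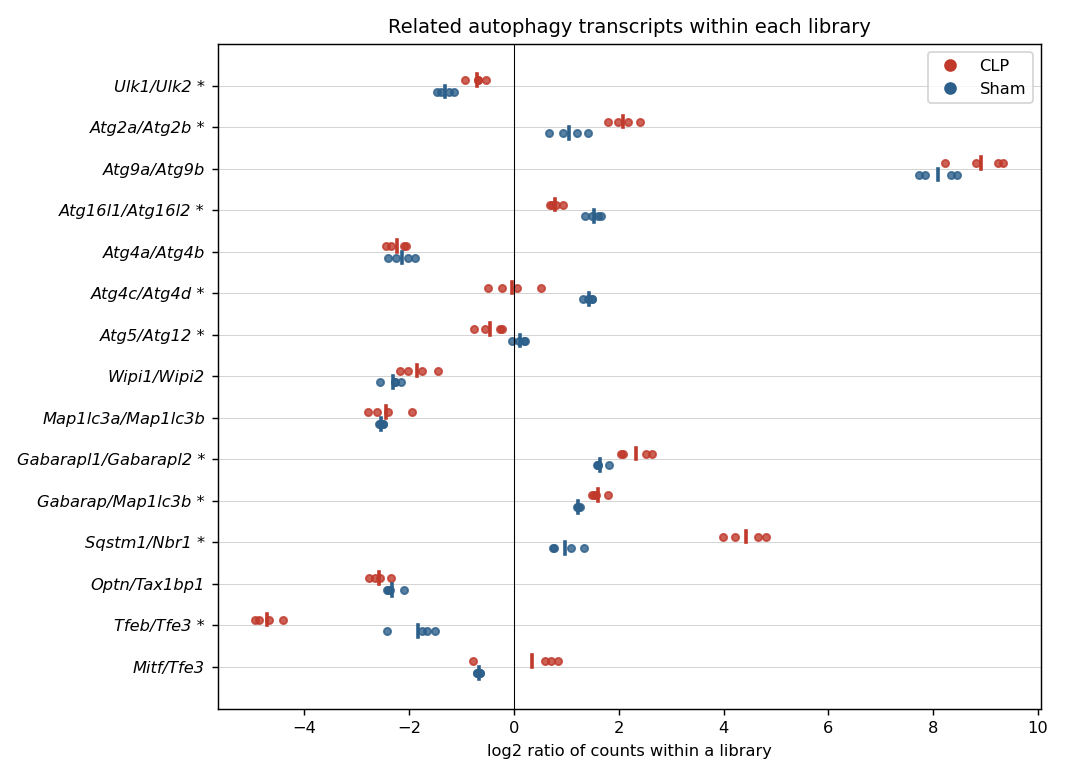
The log2 ratio of counts of 2 related genes is plotted for each library (points) with the group mean (bar), CLP in red and Sham in blue, and an asterisk marks an adjusted p under 0.05 by the exact permutation test. The 9 marked pairs show no overlap, and the Sqstm1 to Nbr1 and Tfeb to Tfe3 pairs are the most widely separated.

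Further lists of pathway genes, none of them members, were read in the same fit. Among 15 genes of autophagosome fusion and maturation 2 rose (13.3%), 5 fell (33.3%) and 8 did not pass, against 24.9% and 29.5% of all genes tested. Vps18, a subunit of the HOPS tethering complex, rose from 57.5 ± 2.47 to 125 ± 15.8 CPM, whereas its partner Vps39 fell from 70.3 ± 5.72 to 36.8 ± 2.56 CPM. Stx17, the autophagosomal SNARE, fell from 25.5 ± 1.48 to 12.02 ± 1.68 CPM (SD, n = 4; edgeR adjusted p = 2.1e-05, 3.4e-05 and 4.9e-05 in that order). Among 16 genes of organelle receptors and mitophagy 4 rose (25%, against the same 24.9% of all genes) and 3 fell (18.75%, against 29.5%). The 3 with the smallest p were Tollip, a ubiquitin-binding adaptor of Toll-like receptor signalling (log2 fold change 1.34 ± 0.13), Tbk1, the kinase of optineurin (1.23 ± 0.14), and Retreg1, a receptor for the endoplasmic reticulum (1.42 ± 0.18).

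Of 23 genes of mTORC1 and AMPK control that were tested, 6 rose and 6 fell (26.1% each, against 24.9% and 29.5% of all genes). The 3 with the smallest p all fell: Ddit4, an inhibitor of mTORC1, by 5.31 ± 0.29, and Sesn1, a leucine-sensing inhibitor of mTORC1, by 3.32 ± 0.18 on the log2 scale. Mlst8, a subunit of mTORC1 itself, went from 15.2 ± 1.32 to 4.29 ± 0.44 CPM. Of 20 lysosomal genes of the CLEAR network, the set of genes with TFEB-type promoter elements, 15 were higher in CLP (75%) and 1 was lower (5%). Their median log2 fold change was 0.49. Cd63 went from 1.51 ± 0.57 to 35.6 ± 15.2 CPM, the glycosidase gene Gla from 19.9 ± 3.24 to 88.6 ± 27.4 CPM and the proton pump subunit Atp6v1h from 71.1 ± 2.37 to 161 ± 26.3 CPM. The single fall was in Sgsh, a sulfatase of heparan sulfate breakdown, chosen for naming after its value was seen (-1.59 ± 0.25). Over all 5 lists, 30 of 86 genes tested were higher (34.9%, against 24.9% of all genes) and 19 lower (22.1%, against 29.5%). With total counts 13 were higher (15.1%, against 11.7% of all genes) and 51 lower (59.3%, against 56.6%), the log2 fold change of 29 of the 86 turned, and of the 20 lysosomal genes 5 were higher and 3 lower with a median of -0.064. The genes named from these lists kept their calls. Without CLP replicate 1, 32 were higher and 29 lower, while over all genes the calls also increased, from 3644 to 4235 higher and from 4319 to 4997 lower.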

How the data were processed

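The deposited table holds whole read counts per Ensembl gene for 8 libraries. Tools named are FastQC, STAR 2.7.10b, featureCounts and DESeq2, with mouse build mm39, per the submitters' processing notes. What parameters, gene annotation and strandedness the counting used is not given in the sources used here, so reads of genes that overlap on opposite strands may not be separated. Libraries were made with a TruSeq stranded kit from total RNA purified with an Aurum kit, per the labels' protocols.

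Symbols came from GENCODE M21 (52081 of 55414 IDs, 99.8% of counts), as did exon lengths (all annotated exons of a gene joined) and GC content. Counts passed filterByExpr, were scaled by TMM and were tested with edgeR 4.0.16 (robust quasi-likelihood F-test, surgery as the only term, R 4.3.3), with Benjamini-Hochberg adjustment over 14655 genes. Each SE was obtained by dividing the size of the log2 fold change by the root of its F statistic. Ratios of counts used 0.5 added counts and a two-sided exact permutation test. Replicate pairs differed by more than sampling noise, so none was merged. Alternatives used DESeq2 1.42.0, limma 3.58.1 (voom), total-count scaling, no filter, a lowess GC correction, a replicate block and left-out libraries. Same-numbered CLP and Sham libraries did not deviate together. The fits were tested on simulated counts with few changed genes, as many upward as downward, which cannot test the choice of scaling for these data.

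The members and lists were chosen with earlier results of these data known. Values in every library are given for members past the threshold with at least a 2-fold change and, in each step, for the member with the highest mean CPM and that with the smallest p, and of other lists the 3 members with the smallest p are named. Sgsh is named in addition, a choice made after its value was seen.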

Additional observations from a re-analysis of the deposited data

Results flagged for a closer look

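In 3 of 72 groups of 4 libraries (36 genes in 2 groups), 1 library lay farther from the rest than Dixon's 95% critical value allows, where chance flags about 1 in 20. Ulk2 was at 102 CPM in CLP replicate 1 and at 59.5 to 61.5 CPM in the other CLP libraries. Atg9a was at 35.4 CPM in CLP replicate 2 and at 43.4 to 44.5 CPM in the others. Atg4c was at 34.6 CPM in Sham replicate 3 and at 35.5 to 35.6 CPM in the other Sham libraries, a gap that is small beside the difference from CLP. The call of each of the 3 genes was the same without that library.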

How the results depend on the processing

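Scaling moved the most. With total-count scaling 1715 genes were higher and 8292 lower in CLP, against 3644 and 4319 with TMM, the autophagy genes gave 5 and 22, and the other pathway lists 13 and 51. The log2 fold change then turned for 10 members: Becn1 (-0.22), Atg2a (-0.095), Atg3 (-0.12), Atg7 (-0.47), Atg12 (-0.23), Atg4d (-0.34), Map1lc3a (-0.14), Map1lc3b (-0.27), Gabarapl2 (-0.39) and Tfe3 (-0.12). DESeq2 turned Atg16l1, which had not passed, to 0.030. Of the 27 members past the threshold, 16 kept their call in all 14 alternatives and 21 whichever single library was left out. Leaving out 1 library gave 10 to 15 members higher and 11 to 15 lower, 16 to 29 lower genes in the other lists, log2 fold changes of -3.1e-05 to 0.14 for Atg7 and -0.14 to 0.13 for Atg16l1, and a difference of -0.067 to 0.21 for the ratio of Map1lc3a to Map1lc3b. Over all genes, 3244 to 4235 were then higher and 3716 to 4997 lower, and between 9 and 11 of the 15 pairs passed.

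Same-numbered CLP and Sham libraries share only a number: the correlations of their deviations were 0.172, -0.125, 0.126 and -0.0853, and no CLP library correlated best with the Sham library of its own number. With the number as a replicate block, 13 members were higher and 12 lower, 3491 and 4303 of all genes, and 31 and 19 of the other lists, with the calls of Wipi1 (edgeR adjusted p = 0.0525) and Map1lc3b (edgeR adjusted p = 0.0654) lost. Depth limits Atg9b, with 16 counts in 8 libraries.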

Other observations

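Of the 27 members past the threshold, 13 had CLP replicate 1 as the CLP library nearest to the mean log2 CPM of Sham, 3 had replicate 2, 4 had replicate 3 and 7 had replicate 4. The same count over all genes called is not given here. CLP replicate 1 lay apart from its group over all genes on the second principal component, so the pattern is not read as particular to the members. The 13 include the receptors Optn, Tax1bp1, Nbr1 and Calcoco1, the kinases Ulk1 and Ulk2 and the regulator Mitf, while for Sqstm1 it was replicate 3 and for Tfeb replicate 4. CLP replicate 1 also had the lowest summed level of neutrophil markers in CLP (258 CPM, against 386 to 671 CPM in the others) and the highest of Kupffer cell markers (37270 CPM, against 28770.5 to 31856 CPM). The part of either in these values was not tested.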
